A study of Mus musculus with 44 samples.

Results

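The genes described here are 7 genes of the smooth muscle cytoskeleton, measured in mouse embryonic stem (ES) cells: Acta2, Tagln, S100a6, Cnn1, Cnn2, Tpm2 and Actg2. Every probe set of the array whose annotated symbol was one of these 7 was taken, which gave 8 probe sets of the 12422 on the array that are not controls, and 7 of the 8251 genes that these name singly. Tpm2 had 2 probe sets and each of the other genes had 1. The genes were chosen by their measured values on these arrays, taken here to be the known difference between recombined and unrecombined Hex cells. The Hex values below are therefore a description and carry no test. The tested differences are between the other groups, but the Hex arrays enter the shared spread of these tests. Whether the other groups also helped to choose the genes is not known, so these tests may not be free of selection.

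The study asked which genes respond to Hex, a homeodomain repressor protein, in ES cells of the CGR8.8 clone of the CGR8 line. RNA was hybridised to 44 arrays, and 40 of these could be placed in 11 groups of 3 to 5 arrays. Wild-type CGR8.8 cells (4 arrays) carried no targeted construct according to their label. Cells with Hex targeted to the Rosa26 locus were measured unrecombined (4 arrays) and recombined (4 arrays). Cells with HexERTVP2 targeted to Rosa26 were measured in clone 1 and in clone 2, and each clone was measured unrecombined or recombined, with or without 4-OHT. 4-OHT is 4-hydroxytamoxifen, a ligand of the oestrogen receptor domains used to switch fusion proteins. For clone 1 these were 5 arrays of unrecombined cells untreated and 3 treated, and 4 of recombined cells untreated and 4 treated. For clone 2 there were 3 of every kind. All Hex and HexERTVP2 groups have a construct targeted to Rosa26, and only the wild type lacks one. The labels name Hex and HexERTVP2 as different constructs, so recombination in the Hex line and in the clones need not be the same change. Each HexERTVP2 result rests on a single clone or on a pair of clones, the number of clones behind the Hex line is not given in the labels, and the recombinase and the 4-OHT dose are not given either. The labels do not say whether replicate arrays were separate cultures, so the p-values measure the spread between arrays, which may be technical.

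Smooth muscle cells contract by sliding actin against myosin. Acta2 encodes the smooth muscle α-actin of these filaments and Actg2 the γ form found in gut muscle. Tagln (SM22α) and the calponins Cnn1 and Cnn2 bind actin filaments, and Tpm2 encodes β-tropomyosin, which lies along them. S100a6 (calcyclin) is a small calcium-binding protein that is not a contractile protein but is found in smooth muscle and fibroblasts and binds annexins and tropomyosin. Many genes of this class carry CArG boxes, short promoter elements bound by serum response factor (SRF), whose cofactors respond to the pool of free actin. Acta2 and Tagln are also switched on by TGF-β in many cell types. Fibroblasts and other stromal cells, which can be present in ES cultures, also express several of these genes strongly.

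The promoters of the members for which RefSeq sequence (GRCm38.p6) was at hand are those of Acta2, S100a6, Cnn1, Cnn2 and Tpm2, each taken as the 250 bases before the annotated start. Those of Acta2 and Cnn2, the genes that passed a test below, are shown because both hold a match to the CArG box. The match searched was CC, then 6 bases that are A or T with at most 1 G or C among them, then GG, which reads the same way on either strand. Capitals mark the matches. The Acta2 window is chr19:34255374-34255623 on the minus strand and the Cnn2 window is chr10:79988350-79988599 on the plus strand, both written 5′ to 3′ along the gene.
Acta2: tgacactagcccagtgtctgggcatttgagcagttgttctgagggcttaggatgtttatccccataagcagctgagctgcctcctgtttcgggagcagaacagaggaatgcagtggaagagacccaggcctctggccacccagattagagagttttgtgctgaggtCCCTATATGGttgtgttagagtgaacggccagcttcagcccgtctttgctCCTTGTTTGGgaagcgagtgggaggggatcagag
Cnn2: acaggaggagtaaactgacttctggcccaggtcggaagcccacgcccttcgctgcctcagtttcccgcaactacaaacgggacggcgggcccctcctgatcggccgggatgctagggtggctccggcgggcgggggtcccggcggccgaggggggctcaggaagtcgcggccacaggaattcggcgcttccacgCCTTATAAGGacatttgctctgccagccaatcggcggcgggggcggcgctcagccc
Acta2 held 2 matches, CCCTATATGG from 84 to 75 bases before the start and CCTTGTTTGG from 34 to 25 bases before it, each with 1 G or C in the core. These letters are those of the elements long described as CArG B and CArG A of this promoter. Cnn2 held 1 match, CCTTATAAGG from 56 to 47 bases before the start, with all 6 core bases A or T. The windows of S100a6, Cnn1 and Tpm2 held 0 matches, and those of Tagln and Actg2 were not analysed here. Of 32851 promoter windows of the same length, 8.593% held at least 1 match by this rule, 1.467% held one without a G or C in the core, and 0.67% held 2 or more. Of 29 genes with a promoter on the smooth muscle and actin-binding list described below, 9 held a match and 8 held one without a G or C in the core. Myl9 and Fhl1, which fell in a comparison below, were among the 9. A match is only a run of letters and says nothing of binding in these cells or of the changes below.

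Levels are given as log2 of the deposited RMA intensity, so a difference of 1 is a doubling. The array medians lay between 6.73 and 6.81 on this scale. One array differed from all others, replicate 2 of unrecombined Hex cells, called array 2 below, with a mean correlation with the other arrays of 0.869 against 0.978 to 0.990 for the rest and a narrower spread of log2 values (SD 1.60 against 1.79 to 1.98). It enters the shared spread of all tests, so results that change without it are given both ways. Of 17 listed pluripotency genes, 15 stood above the array median in all group means. Among them were Pou5f1 (11.07 to 11.67) and Sox2 (10.98 to 11.46), while Esrrb (6.06 to 6.37) and Dppa3 (6.32 to 8.49) did not. The probe set of Hhex, which encodes Hex, had group means from 5.89 to 6.29, under the array medians. Where its probes lie relative to the targeted construct is not given, so it is no check of the labels. Some probe sets of the members are less specific than others. That of Actg2 (suffix _f) shares probes with a gene family, that of Cnn1 (suffix _s) can read more than 1 transcript, and the second one of Tpm2 (suffix _r) was designed under relaxed rules. All but the last reached a group mean of at least 6.

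Acta2 was the most variable member. Its group means ranged over 2.46 log2 units (5.49-fold), more than 99.94% of all probe sets, from 5.86 ± 0.35 in unrecombined Hex cells to 8.32 ± 0.11 in recombined clone 1 without 4-OHT (SD, n = 4 and 4). Tagln spanned 1.83 units (3.56-fold) and S100a6 1.75 units (3.37-fold), while Cnn2 spanned 0.81 units. Without array 2 the spans were 2.34 for Acta2, 1.69 for Tagln and 1.35 for S100a6. With all arrays Cnn1 spanned 0.35, the main Tpm2 probe set 0.35 and Actg2 0.25. The second Tpm2 probe set spanned 0.80 with all arrays and 0.39 without array 2. Since the Hex arrays may have helped to choose the genes, the same range was also taken over the 9 groups without the Hex line. It was 1.65 for Acta2, 0.89 for Tagln, 0.81 for Cnn2 and 0.74 for S100a6, against a median of 0.28 over all probe sets. Cnn1 (0.25), the main Tpm2 probe set (0.20) and Actg2 (0.17) lay below that median, while the dim second Tpm2 probe set (0.38) lay above it. Acta2, Tagln, Cnn2 and S100a6 thus had the widest ranges among the members.

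**Figure D1:**
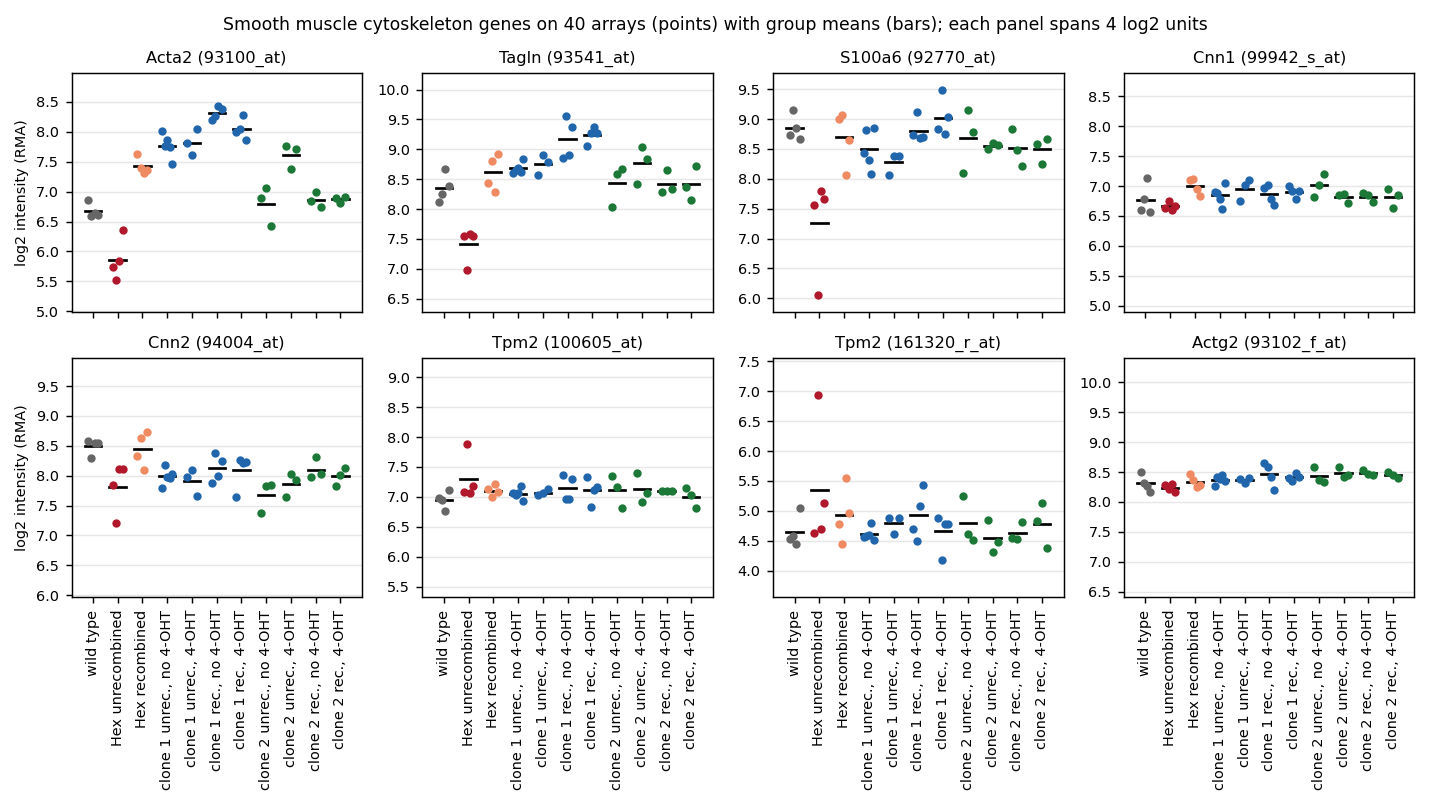
Log2 RMA intensity (y axis) of the 8 probe sets on 40 arrays (points) in 11 groups (x axis), with bars at group means and every panel spanning 4 log2 units. Acta2 ran from 5.53 to 8.44, Tagln and S100a6 were lowest in unrecombined Hex cells, and the panels of Cnn1, Tpm2 (first probe set) and Actg2 are nearly flat apart from single arrays.

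The order of the Acta2 levels went from unrecombined Hex cells (5.86) through wild type (6.67 ± 0.12, n = 4) and 3 clone 2 groups to recombined Hex cells, the treated unrecombined clone 2 and, at the top, clone 1. The 3 clone 2 groups stood at 6.79 ± 0.33 (unrecombined without 4-OHT), 6.86 ± 0.12 (recombined without it) and 6.87 ± 0.06 (recombined with it; SD, n = 3 each). Recombined Hex cells stood at 7.43 ± 0.15 (n = 4) and unrecombined clone 2 with 4-OHT at 7.62 ± 0.21 (n = 3). The clone 1 groups stood at 7.77 ± 0.21 (unrecombined without 4-OHT, n = 5), 7.82 ± 0.21 (unrecombined with it, n = 3), 8.05 ± 0.17 (recombined with it, n = 4) and 8.32 ± 0.11 (recombined without it, n = 4). Of the 10 pairs of neighbours in this order, 2 did not overlap in their arrays, which were unrecombined Hex cells below wild type and recombined clone 2 with 4-OHT below recombined Hex cells. The other neighbours could not be told apart by their spread.

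In the Hex line, described without a test, Acta2 read 5.74, 5.53, 5.83 and 6.35 on the 4 unrecombined arrays and 7.64, 7.40, 7.31 and 7.36 on the recombined ones. All unrecombined arrays lay below the wild-type arrays (6.85, 6.58, 6.65 and 6.61) and all recombined arrays lay above them. The difference between the Hex groups was 1.56 (SE 0.14), made up of a distance of −0.81 from wild type on the unrecombined side and 0.75 on the recombined side. Without array 2 it was 1.45, and the distance of the unrecombined cells from wild type was −0.70.

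Tagln read 7.55, 6.98, 7.58 and 7.56 in unrecombined Hex cells against 8.44, 8.81, 8.28 and 8.92 in recombined ones, with wild type at 8.11, 8.26, 8.67 and 8.39. All unrecombined arrays lay below the wild-type arrays, while the recombined arrays overlapped them. The differences from wild type were −0.94 in unrecombined (−0.80 without array 2) and 0.26 in recombined cells. S100a6 showed the same layout, with 7.57, 6.05, 7.79 and 7.66 in unrecombined cells, 9.0, 9.07, 8.07 and 8.64 in recombined cells, and 8.72, 9.16, 8.84 and 8.67 in wild type. The low reading of array 2 weighed most on this gene. The difference between the Hex groups was 1.42 with that array and 1.02 without it, and for Tagln 1.20 and 1.05.

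Among the other members, Cnn2 was 0.63 higher in recombined than in unrecombined Hex cells (0.43 without array 2), with overlapping arrays, and recombined cells (8.45 ± 0.29) lay at the wild-type level (8.49 ± 0.13; SD, n = 4 and 4). Cnn1 was 0.34 higher, from 6.60 to 6.76 on the unrecombined arrays to 6.83 to 7.12 on the recombined ones, with no overlap. Actg2 differed by 0.10, and the Tpm2 probe sets differed by −0.20 and −0.41 with array 2 but by −0.00 and 0.11 without it. In all, 4 of the 8 probe sets (Acta2, Tagln, S100a6 and Cnn1) did not overlap between the Hex groups, where 5.78% of all probe sets did not, and 3.37% passed an adjusted p of 0.05. Unrecombined Hex cells against wild type had 4 such probe sets (Acta2, Tagln, S100a6 and Cnn2) against 9.72% of all, and recombined Hex cells against wild type had 1 (Acta2) against 10.3% of all. Without array 2 the same members did not overlap, while the shares of all probe sets were 19% between the Hex groups and 16.7% for unrecombined Hex cells against wild type. Since these differences were taken as known when the genes were chosen, nothing is read from these shares.

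Fewer expressing cells and less RNA per cell cannot be told apart in such bulk samples. Fibroblast and stromal markers, of which 21 of 22 listed genes were measured, were summed on each array. Their summed intensity ran from 2672.3 to 2727.2 on the unrecombined arrays other than array 2 (4554.3 with it at the upper end), from 2852.1 to 3300.7 on the recombined arrays and from 2705.8 to 2947.9 in wild type. The sums of both Hex groups thus did not overlap without array 2, while the median difference of the genes was −0.08 with all arrays, against 0.01 over all probe sets, and turned to 0.11 without array 2, against 0.04. Of the 21 markers 8 stood above the array median in all groups, among them the collagens Col1a1 (7.93 to 8.64) and Col1a2 (8.74 to 9.24) and the matrix genes Fn1 (7.89 to 8.36) and Sparc (7.73 to 8.54), and 13 did not, among them Postn (3.44 to 3.73) and Fap (3.73 to 4.01). Vim, an intermediate filament gene abundant in fibroblasts, had group means from 5.44 to 5.88. The part of other cell types in the values above was not tested.

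The first tested question was whether the targeted but unrecombined HexERTVP2 clones differed from wild type before any treatment. Acta2 rose in clone 1, where the arrays read 8.02, 7.76, 7.87, 7.75 and 7.46 against at most 6.85 in wild type. The change was 1.10 (SE 0.13, 2.14-fold) with an adjusted p of 1.456e-05 in the limma fit over all 12422 probe sets. It was the 1 member of 8 that passed in this comparison, where 0.298% of all probe sets passed (an adjusted p under 0.05), and 1.14% without array 2. The 16 arrays of clone 1 in its 4 states, between 7.46 and 8.44, all lay above all wild-type arrays, but they are not replicates of a single condition. The share of all probe sets with such a layout was not computed.

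Acta2 did not pass in unrecombined clone 2, which read 6.89, 7.06 and 6.42. The change from wild type was 0.12 (95% interval −0.20 to 0.43). The difference between the clones was itself tested. Clone 2 was lower than clone 1 by 0.98 (log2 change −0.98, SE 0.15, adjusted p = 1.084e-04 by limma), again 1 of 8 members, against 2.01% of all probe sets. Without array 2 it was still 1 of 8 (adjusted p = 1.443e-05), against 12.5% of all. After recombination the gap was −1.46 (SE 0.15, adjusted p = 2.508e-07 by limma), 1 of 8 members against 0.266% of all (2 of 8 against 0.531% without array 2), in a comparison added after the data were seen.

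Cnn2 fell in clone 2. Its arrays read 7.38, 7.82 and 7.84, and wild type read 8.58, 8.30, 8.55 and 8.54. The change was −0.81 (SE 0.18, adjusted p = 0.00698 by limma), and it was the 1 member of 8 that passed, where 6.79% of all probe sets passed. Without array 2 its adjusted p was 5.174e-04 and it was still the 1 of 8, but 25.4% of all probe sets passed, so the members' share did not stand above the background. In all 29.4% of the probe sets did not overlap between these groups, so a clean separation was common here. Without replicate 1 of clone 2 the adjusted p was 0.0501 and the change −0.66. In clone 1 Cnn2 was 0.50 lower, also without overlap (4.38% of all probe sets did not overlap), but did not pass (adjusted p = 0.377 by limma; 0.0138 with the ratio of 3′ to 5′ β-actin signal, described below, as a covariate). Across both clones 26 of 28 arrays read below the lowest wild-type array in Cnn2. These arrays pool 8 groups and are not replicates of a single condition, and the share of all probe sets with such a layout was not computed.

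Tagln (0.32 in clone 1 and 0.07 in clone 2) and S100a6 (−0.35 and −0.17) passed in neither clone, and their 95% intervals were −0.02 to 0.66 and −0.31 to 0.46 for Tagln and −0.87 to 0.17 and −0.76 to 0.42 for S100a6. Tagln was nevertheless highest in recombined clone 1, where the arrays read 8.86, 9.57, 8.91 and 9.38 without 4-OHT and 9.06, 9.28, 9.38 and 9.27 with it. All 8 lay above all wild-type arrays, whereas 1 of the 6 recombined clone 2 arrays did. Each of these sets pools 2 groups and does not hold replicates of a single condition. The share of all probe sets with such a layout was not computed. Without 4-OHT, recombined clone 2 was below recombined clone 1 by 0.75 (log2 change −0.75, SE 0.19), which did not pass (adjusted p = 0.115 by limma). It passed under 3 alternatives, namely without array 2 of the Hex line, which belongs to neither group (adjusted p = 0.0357), with the replicate number as a block (−0.81, adjusted p = 0.0410) and with that β-actin covariate (−0.93, adjusted p = 1.439e-05).

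**Figure D2:**
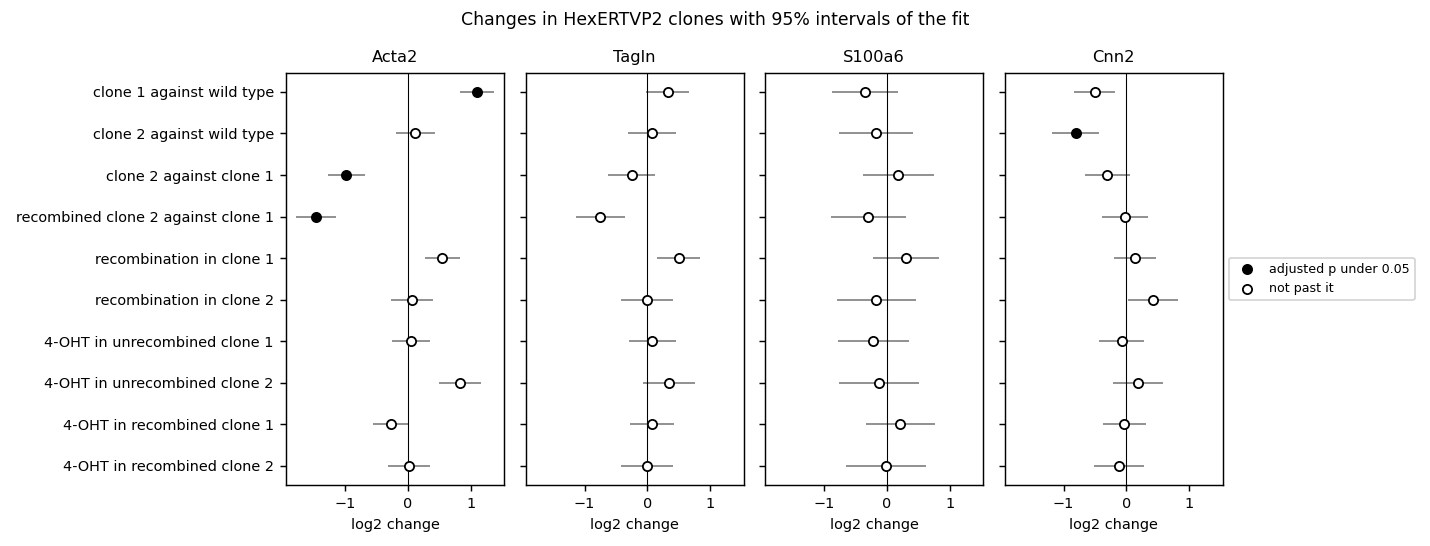
Log2 changes (x axis) of Acta2, Tagln, S100a6 and Cnn2 in 10 comparisons of HexERTVP2 clones (y axis), with 95% intervals of the fit and filled points where the adjusted p was under 0.05. The filled points are Acta2 in clone 1 against wild type (1.10) and in clone 2 against clone 1 before (−0.98) and after recombination (−1.46), and Cnn2 in clone 2 against wild type (−0.81).

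The next question was whether recombination, which in the Hex line went with higher Acta2, Tagln and S100a6, changed the members in the HexERTVP2 clones without 4-OHT. Averaged over the clones, 0 of 8 members passed, where 0.467% of all probe sets did (3.38% without array 2, again with 0 members). Acta2 changed by 0.31 (SE 0.11, adjusted p = 0.233), Tagln by 0.25 (adjusted p = 0.509), Cnn2 by 0.28 (adjusted p = 0.413) and S100a6 by 0.07 (adjusted p = 0.956; limma for all). At an unadjusted p of 0.05, 2 of the 8 would have been counted. The share of all probe sets at that cut was not computed. Nothing is therefore read from this count or from the other counts at an unadjusted p below.

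The clones differed in their values. In clone 1 the recombined arrays read 8.20, 8.27, 8.44 and 8.38 in Acta2, all above the unrecombined ones, with a change of 0.55 (SE 0.13) whose adjusted p of 0.0502 fell just short (0.547% of all probe sets passed). Without array 2 of the Hex line it was 0.0155, with 1.32% of all passing, and over the 40 fits that each left out 1 array it ran from 0.0155 to 0.226. Tagln changed by 0.50 (SE 0.17, adjusted p = 0.338) in clone 1, also without overlap, so 2 of 8 members did not overlap against 3.2% of all probe sets. In clone 2 Acta2 changed by 0.07 and Tagln by −0.00, and 1 member, Cnn2, did not overlap (0.42, adjusted p = 0.427), against 20.5% of all probe sets, while 0.322% of all passed (4.17% without array 2). The difference in effect between the clones was −0.48 for Acta2 (adjusted p = 0.608), −0.50 for Tagln (0.707) and −0.47 for S100a6 (0.808). None of the 8 passed (0.29% of all probe sets did), and 1 of the 8 had an unadjusted p under 0.05, so a difference between the clones was not shown for the members.

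The ratio of the 3′ to the 5′ control probe sets of β-actin, a measure of RNA and labelling quality, moved with recombination. It was 0.57 higher (log2) in recombined than unrecombined clone 1 and 0.30 higher in clone 2. The ratio also differed elsewhere. Its difference was −0.62 for 4-OHT in recombined clone 1, 0.32 for 4-OHT in recombined clone 2 and −0.41 for recombined clone 2 against recombined clone 1. With this ratio as a covariate, Tagln passed in the average over the clones (0.44, adjusted p = 0.00539) and in clone 1 (0.75, adjusted p = 8.637e-05), Cnn2 passed in the average (0.43, adjusted p = 0.0279), and Acta2 passed in neither. The part of RNA quality in these values was not tested further.

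The last question was the effect of 4-OHT. In recombined cells 0 of 8 members passed (0.0322% of all probe sets did) and 0 had an unadjusted p under 0.05. The changes ran from −0.13 to 0.10, with Acta2 at −0.13 (95% interval −0.35 to 0.09) and Tagln at 0.03 (−0.24 to 0.30). In unrecombined cells 0 of 8 passed (0% of all probe sets did), with 1 at an unadjusted p under 0.05. That gene was Acta2, which was 0.44 higher with 4-OHT (SE 0.11, unadjusted p = 3.452e-04, adjusted p = 0.9997 by limma).

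By clone, Acta2 in unrecombined clone 2 read 7.77, 7.38 and 7.72 with 4-OHT against 6.89, 7.06 and 6.42 without it, with no overlap, and the change was 0.83 (SE 0.16). Its adjusted p was 0.0905 in the limma fit and 0.0300 without array 2 of the Hex line, and 0% of all probe sets passed (0.233% without array 2) while 15.7% did not overlap between these groups. In clone 1 the change was 0.05, in recombined clone 2 it was 0.01 and in recombined clone 1 it was −0.27, and none of these passed. The difference between the unrecombined clones (0.78, SE 0.22) had an adjusted p of 0.624, and the interaction of 4-OHT with recombination (−0.57, SE 0.15) one of 0.912 (limma; 0 of 8 members and 0.0161% of all probe sets passed the interaction, and 1 of 8 had an unadjusted p under 0.05). The 3 treated arrays of unrecombined clone 2 lay above the highest of the other 9 clone 2 arrays (7.06). Those 9 pool 3 groups, and the share of all probe sets with such a layout was not computed. Labels matter for this group, since 2 arrays whose titles contradict their own codes name unrecombined 4-OHT states in one or the other and were left out.

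**Figure D3:**
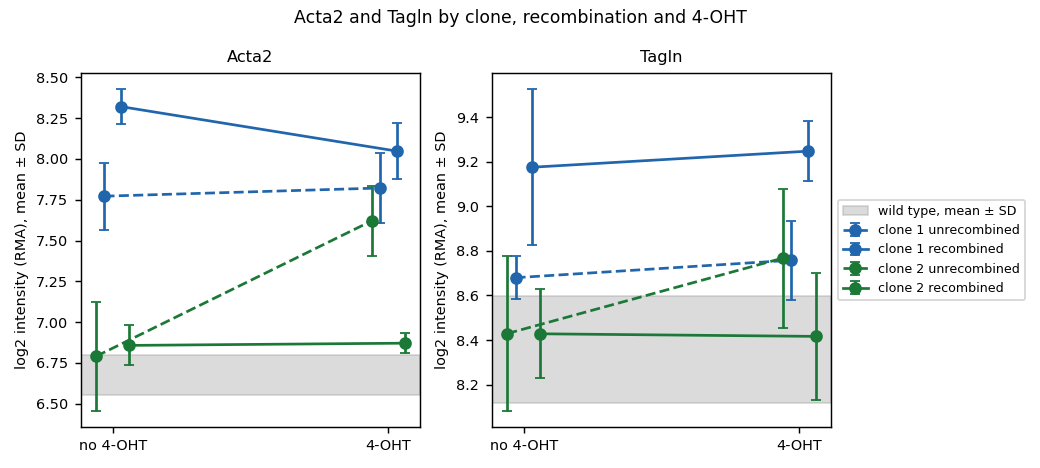
Mean log2 RMA intensity of Acta2 and Tagln (y axes, error bars SD, n = 3 to 5 arrays) without and with 4-OHT (x axis) in unrecombined (dashed) and recombined (solid) cells of clone 1 (blue) and clone 2 (green), with the wild-type mean ± SD in grey. In Acta2 the unrecombined clone 2 cells stood at 6.79 without and 7.62 with 4-OHT, while recombined clone 2 cells stood at 6.86 and 6.87.

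Cnn1, Tpm2 and Actg2, which encode proteins of mature smooth muscle, passed in none of the tested comparisons. Over the 8 comparisons set at the start, Cnn1 had its largest change in clone 2 against wild type (0.25, adjusted p = 0.189 by limma), with 7.21, 7.02 and 6.82 against 6.57 to 7.13. Myh11, the myosin heavy chain that defines smooth muscle, had group means from 4.27 to 4.59, and Mylk, the kinase that activates smooth muscle myosin, from 5.74 to 5.97, both under the array medians. Des (desmin) stood close to the median, from 6.79 to 6.97. Of the 28 measured genes of the list described next, 17 stood above the array median in all groups, Des among them. Levels of different probe sets cannot be set against each other, so these values describe the probe sets and do not settle the identity of the cells.

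Other genes of the contractile and actin-binding machinery were read from a list of 31 genes, of which 28 were measured. In clone 1 against wild type 0 rose and 1 fell, Myl9, a myosin light chain of smooth muscle (−0.59, adjusted p = 9.909e-04 by limma). In clone 2 1 rose, Tpm3 (0.35, adjusted p = 0.0488), a tropomyosin of non-muscle cells, and 2 fell, Fhl1 (−0.63, adjusted p = 0.00101), a LIM-domain protein, and Myl9 (−0.45, adjusted p = 0.0127). Without array 2, 0 rose and 2 fell in clone 1, and 5 rose and 4 fell in clone 2. With all arrays, 0.298% of all probe sets passed in clone 1 and 6.79% in clone 2. Without array 2 these shares were 1.14% and 25.4%. Myl9 thus fell in the clone in which Acta2 rose. The median change of the list was 0.04 in clone 1 and 0.09 in clone 2, against 0.02 and 0.07 over all probe sets.

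Acta1, the skeletal α-actin, was the 1 gene of this list that rose with recombination (0.53, SE 0.12, adjusted p = 0.0325 by limma). Of all probe sets 0.467% passed there, and 3.38% without array 2. Acta1 rose in clone 1 (1.08, adjusted p = 7.263e-05) and changed by −0.02 in clone 2. Here the difference between the clones passed (−1.10, SE 0.24, adjusted p = 0.0285), where 0.29% of all probe sets did. In the 3 comparisons with 4-OHT, and in clone 2 against clone 1, 0 of the 28 passed by limma in either direction, with 0 to 1 of them at an unadjusted p under 0.05 in the former and 4 in the latter. Without array 2, 2 of the 28 rose in clone 2 against clone 1, where 12.5% of all probe sets passed. In the Hex line the median difference of the list was 0.38, with 22 of 28 above 0, against 0.01 over all probe sets, and without array 2 it was 0.18, with 27 of 28 above 0, against 0.04, as a description only.

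**Figure D4:**
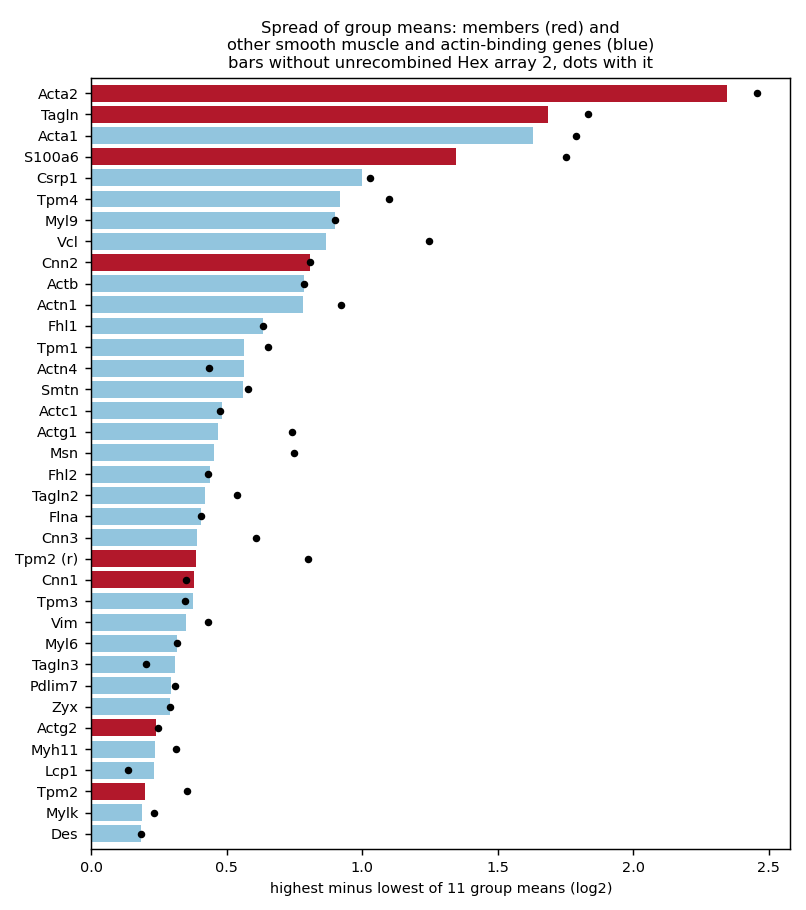
Highest minus lowest of the 11 group means (x axis, log2) for the members (red) and the other measured genes of the smooth muscle and actin-binding list (blue), computed without array 2 of the unrecombined Hex cells (bars) and with it (dots). Acta2 spanned 2.34 and Tagln 1.69 without that array, followed by Acta1 with 1.63 and S100a6 with 1.35, while Myh11, Mylk and Des lay among the shortest bars.

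Of 13 TGF-β pathway genes and of 21 fibroblast and stromal markers, 0 passed by limma in either direction in any of the 8 comparisons, with 0 to 5 of each list at an unadjusted p under 0.05. These counts depended on array 2. Without it, in clone 2 against wild type 1 TGF-β pathway gene fell, 4 fibroblast and stromal markers rose and 1 fell, and in clone 2 against clone 1 4 TGF-β pathway genes fell and 1 fibroblast marker rose, where 25.4% and 12.5% of all probe sets passed. Also without it, 1 fibroblast marker had a lower recombination effect in clone 2 than in clone 1, where 1.35% of all probe sets passed. Col1a1, a fibrillar collagen, changed by 0.34 in clone 1 against wild type in its brightest probe set (adjusted p = 0.9998). Its other probe set changed by 0.58 (adjusted p = 0.0617, and 0.0222 without array 2), and Tgfbr2, a TGF-β receptor, changed by 0.15 (adjusted p = 0.982).

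Among 17 S100 and annexin genes measured, Anxa3, a calcium-dependent membrane-binding protein, rose with recombination (0.53, adjusted p = 0.00792 by limma), and S100a3 rose in clone 2 against wild type (0.33, adjusted p = 0.0417). Of all probe sets 0.467% and 6.79% passed in these comparisons. The other 6 comparisons had 0 in either direction. Of 21 striated muscle markers 1 passed, Myh7 in clone 2 against wild type (0.37, adjusted p = 0.0183). Without array 2, 3 S100 and annexin genes rose and 2 fell in that comparison. In clone 2 against clone 1, 2 rose and 1 fell (12.5% of all probe sets passed). In clone 1 against wild type 1 fell (1.14% of all), and with recombination 2 rose (3.38%). The recombination effect was lower in clone 2 than in clone 1 for 1 (1.35%). Of the striated muscle markers, 3 then rose in clone 2 against wild type and 1 in clone 2 against clone 1. Pluripotency and endoderm markers were also read in clone 2 against wild type, in which 6.79% of all probe sets passed (25.4% without array 2). Of 17 pluripotency genes 4 fell in clone 2 against wild type, Dppa3 (−1.50), Nanog (−0.86), Nr5a2 (−0.55) and Klf4 (−0.94), and 1 fell in clone 1, Dppa3 (−0.84, adjusted p = 0.0140). Of 20 endoderm markers 4 rose in clone 2 against wild type, the collagens Col4a1 (1.37) and Col4a2 (0.79), Apoa1 (0.48) and Sox17 (0.43), and 0 passed in clone 1. All 4 were also higher in clone 2 than in clone 1, where 2.01% of all probe sets passed. The recombination effect was lower in clone 2 than in clone 1 for Col4a1 (−2.20) and Col4a2 (−0.95), where 0.29% of all passed. All these genes passed by limma, and the pluripotency and endoderm lists had 0 in the remaining comparisons. Without array 2 more of them passed. In clone 2 against wild type 8 pluripotency genes fell and 1 rose, and 8 endoderm markers rose and 1 fell. In clone 2 against clone 1, 4 pluripotency genes fell and 1 rose, and 7 endoderm markers rose, where 12.5% of all probe sets passed. In clone 1 against wild type 5 pluripotency genes fell and 1 endoderm marker rose, where 1.14% of all probe sets passed. Also without array 2, 8 of the 17 pluripotency genes rose and 1 endoderm marker fell with recombination, where 3.38% of all probe sets passed. With 4-OHT in recombined cells 1 pluripotency gene rose and 3 fell, where 0.145% of all passed. The interaction was below 0 and passed for 1 pluripotency gene, where 0.0644% of all passed. The part of such differences in cell state in the levels of Acta2 and Cnn2 was not tested.

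Acta2 and Tagln followed each other across the 11 groups, with a Pearson r of 0.94 between their group means, and 0.94 without array 2. Tagln and S100a6 had an r of 0.82 (0.77 without array 2), and Acta2 and S100a6 one of 0.62 (0.56). Acta2 and Cnn2 had an r of 0.13, which turned to −0.030 without array 2. These are descriptions of 11 points that share arrays and include the Hex groups.

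The probe sets most like Acta2, among 210 with a single gene symbol whose group means had an SD of at least 0.3, were those of Pmp22 (r = 0.95), a myelin protein also made by many other cells, Prss23 (0.94), a serine protease, Anxa1 (0.93 and 0.92 for 2 probe sets), a phospholipid-binding annexin, and Col1a1 (0.91, in the dimmer of its 2 probe sets). Those most like Tagln were Anxa1 (0.97 and 0.95), Anxa3 (0.97) and the simple epithelial keratins Krt8 (0.96) and Krt19 (0.93). Without array 2, 4 of these 5 stayed among the top 5 for each gene, with Phldb2 in place of Col1a1 and Krt18 in place of Krt19. Anxa1 shared with Acta2 the high values of recombined clone 1, and its rise with recombination in clone 1 passed in the probe set with the higher likeness (1.13, adjusted p = 1.847e-04 by limma). Of all probe sets 0.547% passed there. Anxa1 was picked by its likeness over these same group means, so this result is a description and no independent support.

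**Figure D5:**
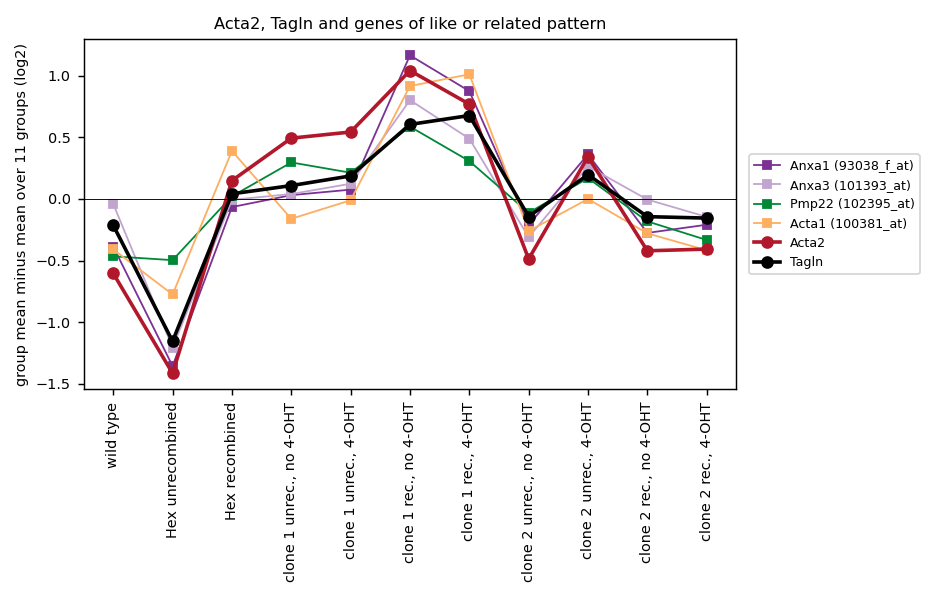
Group means minus the mean over the 11 groups (y axis, log2) for Acta2, Tagln, 3 of the genes most like them (Pmp22, Anxa1, Anxa3) and Acta1, across the 11 groups (x axis). Acta2, Tagln and Anxa1 were lowest in unrecombined Hex cells and highest in recombined clone 1, and wild type lay below the mean in all 6 genes.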

How the data were processed

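RNA of mouse ES cells was measured on 44 single-colour expression arrays. The deposited values are linear intensity per probe set, made by the authors with RMA per the submitters' processing notes. RMA corrects background, quantile-normalizes the arrays and summarizes the probes of a set, which evens out shifts shared by a whole array. Software version and settings are not given in the sources used here. The number of arrays limits the precision, and the spread that 1 outlying array adds limits it further. Of 12488 probe sets, 66 controls were left out and 12422 were tested. The platform annotation, which can be old, gave 1 symbol to 10833 of them, several to 396 and none to 1193. Groups came from the sample titles, and 4 arrays whose titles contradict their own codes entered no group.

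The log2 intensity of 40 arrays in 11 groups was fitted with limma 3.58.1 (lmFit and eBayes, R 4.3.3; 29 residual degrees of freedom, 1 spread per probe set), with Benjamini-Hochberg adjustment over all probe sets within a comparison and a threshold of 0.05. The fit was tested on simulated data. Of the comparisons, 8 were set at the start. Those within 1 clone, and that of the recombined clones, were added after the data were seen. The members and gene lists were chosen with earlier results of these data known. The result of 1 gene list is not reported here. Named were all member probe sets, up to 4 genes per list and comparison that passed with the smallest p (otherwise up to 2 as values), and the 5 probe sets most like Acta2 and Tagln; a gene on a list was read by its brightest probe set. Acta1 and Anxa1 by clone, the defining markers Myh11, Mylk, Des and Vim, and Pou5f1 and Sox2 were singled out after their values were seen. Figures were drawn with matplotlib 3.10.9. The alternatives were centring each array on its median, leaving out probe sets under log2 6, the β-actin 3′/5′ ratio as a covariate, the replicate number as a block, and leaving out each array.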

Additional observations from a re-analysis of the deposited data

Results flagged for a closer look

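Among the 48 sets of 4 or 5 arrays checked (8 probe sets in 6 groups), 7 held an array far from the others of its group, where chance gives about 1 in 20. Array 2 of the unrecombined Hex cells read 6.98 in Tagln (nearest array 7.55), 6.05 in S100a6 (nearest 7.57) and 7.88 in the main Tpm2 probe set (nearest 7.18). Replicate 2 of recombined clone 1 without 4-OHT read 9.11 in S100a6 (nearest 8.73). In recombined clone 1 with 4-OHT, replicate 1 read 7.65 in Cnn2 (nearest 8.22) and replicate 2 read 4.18 in the second Tpm2 probe set (nearest 4.78). Wild-type replicate 2 read 8.30 in Cnn2 (nearest 8.54).

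The 4 arrays left out of the groups were read against the highest wild-type array. Acta2 reached 8.26 on one of them, against 6.85 in wild type, and 3 of the 4 lay above that level. Tagln reached 8.79 (wild type at most 8.67), the main Tpm2 probe set 7.43 (7.11) and Actg2 8.57 (8.50).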

How the results depend on the processing

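The signed values of Acta2 in clone 1 against wild type (1.03 to 1.17) and in clone 2 against clone 1 before (−1.12 to −0.79) and after recombination (−1.53 to −1.41) stayed past the threshold in each of the 40 fits that left out 1 array and under the other 4 alternatives. Under the covariate, the 3′/5′ ratio of β-actin, 2 members passed in clone 1 against wild type (Acta2 and Cnn2), 2 in recombination (Tagln and Cnn2) and 2 between the recombined clones (Acta2 and Tagln). The labels do not say whether replicate numbers mark a shared batch. Deviations of same-numbered arrays of different groups had a mean r of 0.08 (173 pairs, −0.70 to 0.85, 88 of them above 0.1). For arrays with different numbers it was −0.025 (552 pairs, −0.83 to 0.82, 220 of them above 0.1). Of the 40 arrays, 17 correlated best with their own number. A weak pairing by number is thus not excluded. With the replicate block, 2 members (Acta2 and Tagln) passed between the recombined clones, and the 4-OHT change of Acta2 in unrecombined clone 1 turned to −0.042; it changed no other call of a member. Leaving out 1 array, 0 to 1 members passed in clone 2 against wild type (0 without its replicate 1) and 1 to 2 between the recombined clones (2 without array 2 of unrecombined Hex). The recombination effect of Acta2 in clone 1 passed in 10 of these 40 fits, 3 of them without arrays 2 or 4 of unrecombined Hex or replicate 1 of unrecombined clone 1, and under the dim filter (adjusted p = 0.0419). The 4-OHT effect in unrecombined clone 2 passed in 3, without arrays 2 or 4 of unrecombined Hex or replicate 2 of its untreated group.

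Small changes that did not pass turned sign. Tagln was −0.036 with 4-OHT in recombined cells and −0.0746 in clone 2 against wild type under the covariate, and 0.018 (centred) and 0.13 (covariate) for recombination in clone 2. Leaving out 1 array gave −0.060 to 0.15 for Acta2 with 4-OHT in unrecombined clone 1, −0.019 to 0.30 for clone 2 against wild type and −0.12 to 0.20 for recombination in clone 2. For S100a6 it gave −0.061 to 0.47 (clone 2 against clone 1), −0.41 to 0.12 (clone 2 against wild type) and −0.076 to 0.19 (recombination), and for Tagln −0.0465 to 0.095 (4-OHT in recombined cells), −0.051 to 0.27 (clone 2 against wild type) and −0.20 to 0.12 (recombination in clone 2). The cause was not tested.

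Counts over all probe sets moved more. Under the covariate they went from 37 to 100 (clone 1 against wild type), 843 to 2770 (clone 2 against wild type), 250 to 845 (clone 2 against clone 1), 58 to 93 (recombination), 36 to 81 (its difference between clones), 4 to 12 (4-OHT in recombined cells) and 2 to 4 (interaction). Leaving out 1 array, the same counts ran over 23 to 142, 215 to 3152, 61 to 1555, 25 to 420, 19 to 168, 3 to 18 and 1 to 8, and over 15 to 66 between the recombined clones (33 with all), each highest without array 2 of unrecombined Hex, with 215, 61 and 25 reached without replicate 3 of untreated unrecombined clone 2. Centring moved the share of higher calls from 48.4% to 32.4% in clone 2 against wild type and from 76.8% to 57.3% between the Hex groups.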

Other observations

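The 4 arrays whose titles and codes disagree are given as values only. The array whose title says clone 2 and whose code says clone 1, unrecombined with 4-OHT, read 8.26 in Acta2 and 8.29 in Tagln. That of unrecombined clone 2, titled as without 4-OHT and coded as with it, read 7.15 and 8.79. Both titled as recombined clone 1 with 4-OHT but coded as clone 2 read 6.77 and 6.95 in Acta2 and 8.19 and 8.33 in Tagln; the first of these has a code without 4-OHT.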
